A study of Mus musculus with 5 samples.

Results

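Transcripts of 5 primary granule genes of neutrophil precursors were followed here in bone marrow–derived macrophages (BMDMs), namely *Mpo*, *Elane*, *Prtn3*, *Ctsg* and *Ms4a3*. The genes were chosen by name, with earlier results of these data known. Their expected counts (read counts divided among transcripts that share sequence) and FPKM values (fragments scaled to transcript length and library size) were summed per gene. All 5 were present among the 17058 genes with a count, and all 5 were among the 12576 genes that passed the filter on low counts and were tested. The RNA-Seq libraries came from BMDMs of young adult BALB/c mice, grown out with M-CSF and cocultured for 48 hours with 4T1 cells, a mouse mammary carcinoma line of the same strain. In 2 libraries (WT) the 4T1 cells were unedited, and in 3 libraries (Adam17-/-) they were an ADAM17 knock-out line designated 2.8, made by CRISPR/Cas9 editing. Macrophages and cancer cells shared medium across a porous membrane, and the sequenced cells themselves carried no deletion. All Adam17-/- libraries share 1 line designation, so the loss of ADAM17 and any other trait of that line cannot be told apart. The labels number the libraries as repeats without saying whether they came from separate cultures or animals, and the p-values measure only the spread between these libraries, which may be technical.

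Primary (azurophil) granules are formed in the bone marrow at the promyelocyte stage, when a committed granulocyte precursor makes the contents that it will later release onto microbes. Transcription of this cargo is switched off as the cell goes on to make secondary granules, so mature neutrophils carry the proteins but little of the RNA. The same genes are also used by granulocyte-monocyte progenitors and by the earliest monocyte precursors, whereas macrophages are not known for making them.

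The libraries held between 14658694 counts (Adam17-/- replicate 2) and 20788373 counts (WT replicate 1), and 3 counts corresponded to between 0.157 and 0.197 CPM (counts scaled to the TMM-normalized library size). The cells carried the RNA of macrophages in every library. *Csf1r*, the M-CSF receptor, stood at 5356 ± 366 CPM (SD, n = 2) in WT and 4374 ± 320 CPM (SD, n = 3) in Adam17-/- cocultures, and 10 of 10 macrophage markers were tested. Of these markers, 8 were lower in Adam17-/- cocultures with an adjusted p of at most 0.05 (edgeR), and 0 were higher. Their summed level ran from 16672 to 17484 CPM in WT and from 10948 to 12649 CPM in Adam17-/- libraries, where replicate 2 stood at 11924 CPM. The 5 primary granule genes together made up 40.3 and 26.0 CPM in the WT libraries and 53.3, 134 and 62.5 CPM in Adam17-/- replicates 1, 2 and 3. In bulk RNA, fewer cells of a type and less RNA per cell cannot be told apart, and the cells that held these transcripts were not identified.

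Each gene was quantified from 1 RefSeq transcript, and the counts of all 5 were whole numbers in every library. The genes lie at 4 places on build GRCm38. *Prtn3* (Entrez 19152, chr10:79879667-79883174, plus strand) and *Elane* (Entrez 50701, chr10:79886312-79888216, plus strand) are neighbors separated by 3137 bp, and each has 5 exons in GENCODE. *Mpo* (Entrez 17523, chr11:87793784-87804412, plus strand) has 14 exons, *Ctsg* (Entrez 13035, chr14:56099885-56102574, minus strand) has 5, and *Ms4a3* (Entrez 170813, chr19:11629499-11640851, minus strand) has 7.

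The promoter windows of these genes are shown so that genes transcribed at the same stage of maturation can be compared base by base. Each window runs from 250 bases before to 50 bases after the RefSeq gene start, 5′ to 3′ on the gene's own strand (RefSeq, GRCm38.p6), with every GAGGAA, a hexamer found in binding sites of ETS factors such as PU.1, in capitals. The *Mpo* window is chr11:87793534-87793833, the *Elane* window chr10:79886062-79886361, the *Prtn3* window chr10:79879417-79879716, the *Ctsg* window chr14:56102525-56102824 and the *Ms4a3* window chr19:11640802-11641101.
Mpo: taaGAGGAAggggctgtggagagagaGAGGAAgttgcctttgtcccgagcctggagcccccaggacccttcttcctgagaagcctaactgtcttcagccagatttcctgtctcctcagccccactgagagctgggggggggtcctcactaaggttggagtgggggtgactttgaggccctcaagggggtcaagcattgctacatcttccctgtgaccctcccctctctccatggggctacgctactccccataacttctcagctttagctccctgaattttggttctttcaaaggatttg
Elane: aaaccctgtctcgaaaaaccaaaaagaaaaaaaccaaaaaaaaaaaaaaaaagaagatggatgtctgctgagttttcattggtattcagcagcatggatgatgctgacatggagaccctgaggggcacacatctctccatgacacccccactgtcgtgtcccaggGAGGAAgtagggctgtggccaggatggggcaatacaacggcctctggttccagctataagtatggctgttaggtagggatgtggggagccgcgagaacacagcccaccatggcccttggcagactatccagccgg
Prtn3: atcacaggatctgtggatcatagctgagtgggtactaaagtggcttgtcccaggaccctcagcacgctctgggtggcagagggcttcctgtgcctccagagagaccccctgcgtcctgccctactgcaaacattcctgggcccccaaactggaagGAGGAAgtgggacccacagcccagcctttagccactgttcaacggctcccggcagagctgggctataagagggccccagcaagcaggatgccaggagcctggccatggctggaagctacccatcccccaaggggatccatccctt
Ctsg: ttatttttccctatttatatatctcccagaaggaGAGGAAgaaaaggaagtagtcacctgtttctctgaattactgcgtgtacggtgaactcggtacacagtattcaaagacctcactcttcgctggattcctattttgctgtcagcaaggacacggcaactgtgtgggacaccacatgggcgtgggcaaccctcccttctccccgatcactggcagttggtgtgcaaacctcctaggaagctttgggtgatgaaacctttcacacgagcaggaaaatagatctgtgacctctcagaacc
Ms4a3: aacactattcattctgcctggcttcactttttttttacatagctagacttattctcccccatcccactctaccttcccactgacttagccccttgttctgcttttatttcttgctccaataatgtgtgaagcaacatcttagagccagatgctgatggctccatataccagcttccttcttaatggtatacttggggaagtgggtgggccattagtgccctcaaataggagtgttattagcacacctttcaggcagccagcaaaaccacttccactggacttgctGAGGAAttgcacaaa

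GAGGAA occurred in 5 of the 5 windows, with 6 matches in all and all of them on the gene's own strand, and in 28.3% of 32851 windows of the same length. Positions count the gene start as the first base, with no position 0. The matches began at -247 and -224 in *Mpo*, -85 in *Elane*, -95 in *Prtn3*, -216 in *Ctsg* and 36 in *Ms4a3*. The match of *Ms4a3* thus lies after its start. The longer form GAGGAAGT, chosen after the windows had been read, was found at -224 in *Mpo*, -85 in *Elane* and -95 in *Prtn3*, and in 3.2% of all windows. GENCODE begins a coding transcript 203 bases upstream of the RefSeq start in *Mpo*, 65 bases upstream in *Elane* and 53 bases upstream in *Prtn3*, and the matches in these genes precede that start too. AACNG, a core of MYB sites, occurred in 4 of the 5 windows with 9 matches (not in *Ms4a3*) and in 80.3% of all windows. TTNNGNAA, a relaxed form of C/EBP sites, had 2 matches in *Ms4a3* only (40.7% of all windows), and TGNGGT, a core of RUNX sites, had 2 in *Ctsg* only (45.8%). Both strands were searched, and no match of a motif shared a base with a match of another, other than GAGGAAGT, which contains GAGGAA. These matches describe letters in the windows and show no binding.

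To ask whether precursor transcripts differed between the cocultures, the groups were compared with edgeR's quasi-likelihood test and Benjamini-Hochberg adjustment over all genes tested. A gene was called higher where its adjusted p was at most 0.05 and its log2 fold change at least 1. *Elane* and *Ms4a3* were called higher in Adam17-/- cocultures, 2 of 5 genes beside 3.36% of all genes tested. At the adjusted p alone, *Prtn3* passed as well, giving 3 of 5 genes beside 14.9% of all genes, and 0 of 5 fell. Every Adam17-/- library stood above both WT libraries for 4 of 5 genes, the exception being *Ctsg*, beside 28.4% of all genes tested. *Ms4a3*, at 6 and 8 counts in WT, met the filter on low counts only through the Adam17-/- libraries, where it was higher. With at least 10 counts required in every library it was not tested, and *Elane* alone was called. The median log2 fold change of the 5 genes was 1.57, and that of all genes tested was 0.01. Since the genes were chosen with earlier results known, the values over all genes are a background and no independent test. In all 5 genes the highest library was Adam17-/- replicate 2, the smallest library, and the values of each gene are therefore given by library, as in the plot of levels by library.

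**Figure D1:**
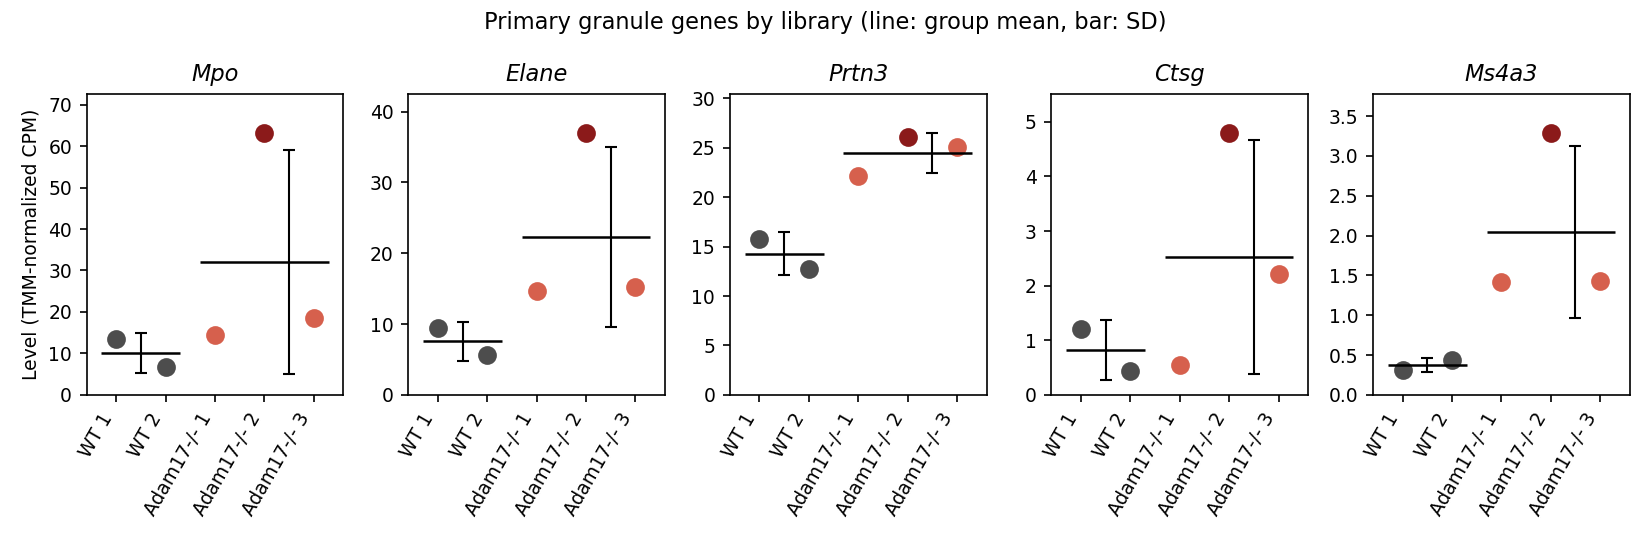
TMM-normalized CPM of the 5 genes in each library (points), with the mean of each group (line) and its SD (bar; n = 2 WT and n = 3 Adam17-/-). Adam17-/- replicate 2 (dark red) is at least 2 times as high as every other library for *Mpo*, *Elane*, *Ctsg* and *Ms4a3*, at 63.2 CPM for *Mpo*. The 3 Adam17-/- libraries of *Prtn3* lie together between 22.2 and 26.1 CPM.

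*Elane* encodes neutrophil elastase, a serine protease that degrades bacterial proteins and elastin. It was measured at 9.47 and 5.63 CPM in the WT libraries and 14.6, 37.0 and 15.2 CPM in Adam17-/- replicates 1, 2 and 3, from 181, 104, 267, 562 and 288 counts. The groups did not overlap, and replicates 1 and 3 lay close together while replicate 2 stood 2.53 and 2.42 times above them. The group means were 7.55 ± 2.72 CPM (SD, n = 2) and 22.3 ± 12.7 CPM (SD, n = 3). *Elane* rose 2.91-fold, a log2 fold change of 1.54 (SE 0.407, 95% interval 0.63 to 2.46, adjusted p = 0.0188 in edgeR). Without Adam17-/- replicate 2 the log2 fold change was 1.00 (SE 0.218, adjusted p = 0.0198 in edgeR), so that the call stood at the fold limit.

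*Prtn3* encodes proteinase 3, a serine protease closely related to elastase and the target antigen of antineutrophil cytoplasmic antibodies. WT libraries held 15.8 and 12.7 CPM of *Prtn3*, compared with 22.2, 26.1 and 25.1 CPM in Adam17-/- replicates 1, 2 and 3, from 302, 235, 406, 397 and 474 counts. It was the evenest of the 5 genes, with Adam17-/- replicate 2 only 1.10 times the mean of the other Adam17-/- libraries. The group means were 14.3 ± 2.18 CPM (SD, n = 2) and 24.5 ± 2.02 CPM (SD, n = 3). *Prtn3* rose 1.71-fold, a log2 fold change of 0.78 (SE 0.129, 95% interval 0.49 to 1.07), which passed the test (adjusted p = 0.00261 in edgeR) but lay under the fold limit for a call. Without Adam17-/- replicate 2 it was 0.75 (SE 0.146, adjusted p = 0.0144 in edgeR).

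*Mpo* encodes myeloperoxidase, the heme enzyme that makes hypochlorous acid from hydrogen peroxide and chloride and the most used marker of the promyelocyte. *Mpo* stood at 13.5 and 6.76 CPM in WT replicates 1 and 2 and 14.4, 63.2 and 18.5 CPM in Adam17-/- replicates 1, 2 and 3, from 258, 125, 264, 960 and 350 counts. The lowest Adam17-/- library lay just above the higher WT library, and replicate 2 stood 4.37 and 3.41 times above replicates 1 and 3. The exact Poisson interval for its 960 counts (95%, counting error only) ran from 900 to 1023. That of replicate 3, the next highest, ran from 314 to 389. The group means were 10.1 ± 4.76 CPM (SD, n = 2) and 32.0 ± 27.0 CPM (SD, n = 3). The log2 fold change was 1.64 (SE 0.587, 95% interval 0.33 to 2.95) and did not pass the threshold (adjusted p = 0.0581 in edgeR). It was 0.72 (SE 0.278, adjusted p = 0.101 in edgeR) without Adam17-/- replicate 2, and it passed without WT replicate 1 (2.21, adjusted p = 0.0355 in edgeR) or without Adam17-/- replicate 1 (2.02, adjusted p = 0.0329 in edgeR). It also passed without a filter on low counts (1.65, adjusted p = 0.00325 in edgeR) and with scaling by library size only (1.79, adjusted p = 0.0477 in edgeR). With the replicate number as a block, which drops Adam17-/- replicate 3 from the contrast, it passed too (1.65, adjusted p = 0.00609 in edgeR).

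*Ctsg* encodes cathepsin G, a serine protease of the same granules with chymotrypsin-like activity. Its transcript was rare, at 1.2 and 0.433 CPM in WT replicates 1 and 2 and 0.547, 4.80 and 2.22 CPM in Adam17-/- replicates 1, 2 and 3, from 23, 8, 10, 73 and 42 counts. The groups overlapped, since Adam17-/- replicate 1 lay below WT replicate 1, and replicate 2 stood 8.77 times above replicate 1. The exact Poisson intervals were 57.2 to 91.8 counts in replicate 2, 30.3 to 56.8 in replicate 3 and 4.80 to 18.4 in replicate 1. The group means were 0.818 ± 0.545 CPM (SD, n = 2) and 2.52 ± 2.14 CPM (SD, n = 3). The log2 fold change of 1.57 (SE 0.752, 95% interval -0.12 to 3.25) did not pass the threshold (adjusted p = 0.138 in edgeR), nor did the value of 0.78 without Adam17-/- replicate 2 (SE 0.666, adjusted p = 0.43 in edgeR). It passed without Adam17-/- replicate 1 (2.08, adjusted p = 0.0271 in edgeR) and without a filter on low counts (1.58, adjusted p = 0.0371 in edgeR).

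*Ms4a3* encodes a membrane protein of the MS4A family whose expression marks the granulocyte-monocyte progenitor. WT libraries held 0.314 and 0.433 CPM of *Ms4a3*, against 1.42, 3.29 and 1.43 CPM in Adam17-/- replicates 1, 2 and 3, from 6, 8, 26, 50 and 27 counts. The groups did not overlap, replicates 1 and 3 were alike, and replicate 2 stood 2.31 and 2.30 times above them. The exact Poisson interval of replicate 2 (37.1 to 65.9 counts, not scaled for library size) overlapped those of replicates 1 (17.0 to 38.1) and 3 (17.8 to 39.3). The group means were 0.373 ± 0.0841 CPM (SD, n = 2) and 2.05 ± 1.08 CPM (SD, n = 3). *Ms4a3* rose 5.30-fold, the largest fold of the 5 genes and the one with the fewest WT counts, at a log2 fold change of 2.41 (SE 0.522, 95% interval 1.24 to 3.58, adjusted p = 0.00838 in edgeR). Without Adam17-/- replicate 2 it was 1.94 (SE 0.395, adjusted p = 0.0165 in edgeR).

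**Figure D2:**
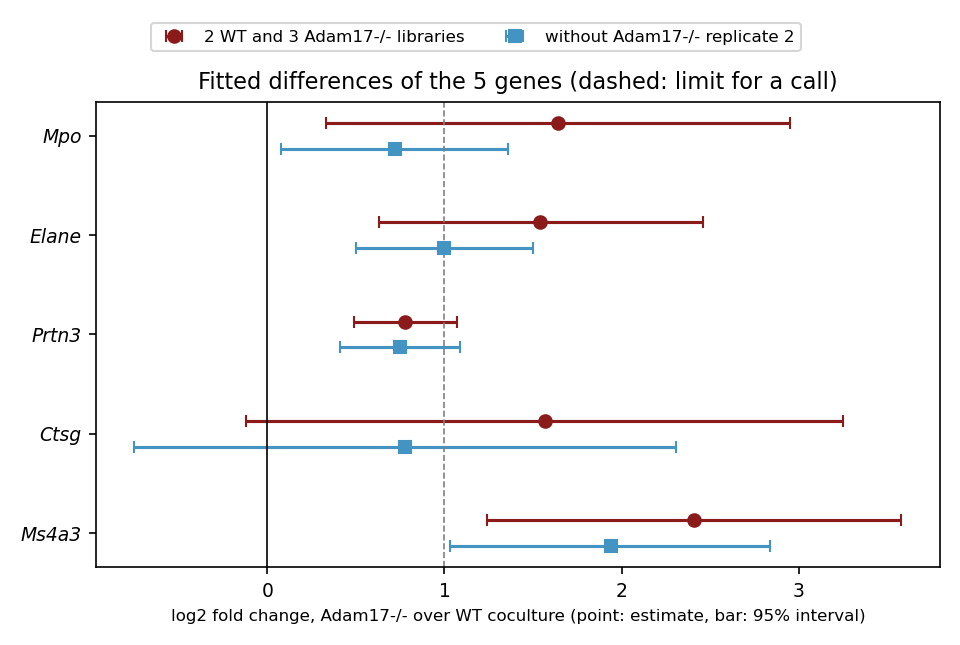
Log2 fold change of Adam17-/- over WT cocultures for the 5 genes, with its 95% interval, from all 5 libraries (red circles) and without Adam17-/- replicate 2 (blue squares). The estimate of *Mpo* moves from 1.64 to 0.72 and that of *Ctsg* from 1.57 to 0.78 when that library is left out, and *Prtn3* stays at 0.78 and 0.75.

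Leaving out Adam17-/- replicate 2 kept *Elane* and *Ms4a3* as the called genes and took the median log2 fold change of the 5 genes from 1.57 to 0.78. Leaving out Adam17-/- replicate 1 raised the number called from 2 to 4, adding *Mpo* and *Ctsg*, and leaving out WT replicate 1 raised it to 3, adding *Mpo*. Taken gene by gene, exact two-sided permutation tests of the CPM values gave p = 0.1 for *Prtn3* and *Ms4a3*, 0.3 for *Elane* and 0.4 for *Mpo* and *Ctsg*. With 2 libraries against 3, 0.1 is the smallest p such a test can give.

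Levels of different genes can be compared only per length, and FPKM was used for this. In WT cocultures *Prtn3* was the highest at 14.6 ± 1.77 FPKM, followed by *Elane* at 8.28 ± 2.73, *Mpo* at 3.78 ± 1.66, *Ctsg* at 0.805 ± 0.516 and *Ms4a3* at 0.375 ± 0.0919 FPKM (SD, n = 2). The order *Prtn3*, *Elane*, *Mpo*, *Ctsg* held in both WT libraries without overlap between neighbors, whereas *Ctsg* and *Ms4a3* were level at 0.44 FPKM in WT replicate 2. In Adam17-/- cocultures the FPKM were 27.8 ± 2.15 for *Prtn3*, 27.2 ± 15.5 for *Elane*, 13.3 ± 11.2 for *Mpo*, 2.77 ± 2.35 for *Ctsg* and 2.26 ± 1.18 for *Ms4a3* (SD, n = 3). There the spread of *Elane* covered *Prtn3*, with *Elane* above *Prtn3* in replicate 2 only (45.12 against 29.67 FPKM). *Mpo* stayed below *Elane* within each library, and *Ctsg* lay below *Ms4a3* in Adam17-/- replicate 1 only (0.61 against 1.59 FPKM).

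Ratios of counts between the genes within a library do not depend on scaling between libraries. The ratio of *Mpo* to *Prtn3* was 0.854 and 0.532 in the WT libraries and 0.650, 2.42 and 0.738 in Adam17-/- replicates 1, 2 and 3. That of *Elane* to *Prtn3* was 0.599 and 0.443 in WT and 0.658, 1.42 and 0.608 in Adam17-/- libraries. For both ratios, 4 of the 5 libraries lay together and Adam17-/- replicate 2 lay apart, so that in this library the proportion of primary granule transcripts differed from that in the rest. The ratio of *Mpo* to *Elane* moved less, from 0.989 to 1.71 over the 5 libraries, and the groups overlapped.

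The ratio of *Prtn3* to *Ms4a3* was 50.3 and 29.4 in WT and 15.6, 7.94 and 17.6 in Adam17-/- libraries. That of *Elane* to *Ms4a3* was 30.2 and 13 in WT and 10.3, 11.2 and 10.7 in Adam17-/- libraries. In both cases every Adam17-/- library lay below both WT libraries (exact two-sided permutation p = 0.1 for each, the smallest possible), with 6 and 8 counts of *Ms4a3* behind the WT values. Of the 10 ratios between the genes, 3 had groups that did not overlap, these and that of *Elane* to *Prtn3*, which was higher in every Adam17-/- library than in both WT libraries (exact two-sided permutation p = 0.4). The exact permutation p of the ratios other than the 2 to *Ms4a3* ran from 0.3 to 1.0. With 0.1 as its smallest p, this permutation test cannot pass a threshold of 0.05.

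**Figure D3:**
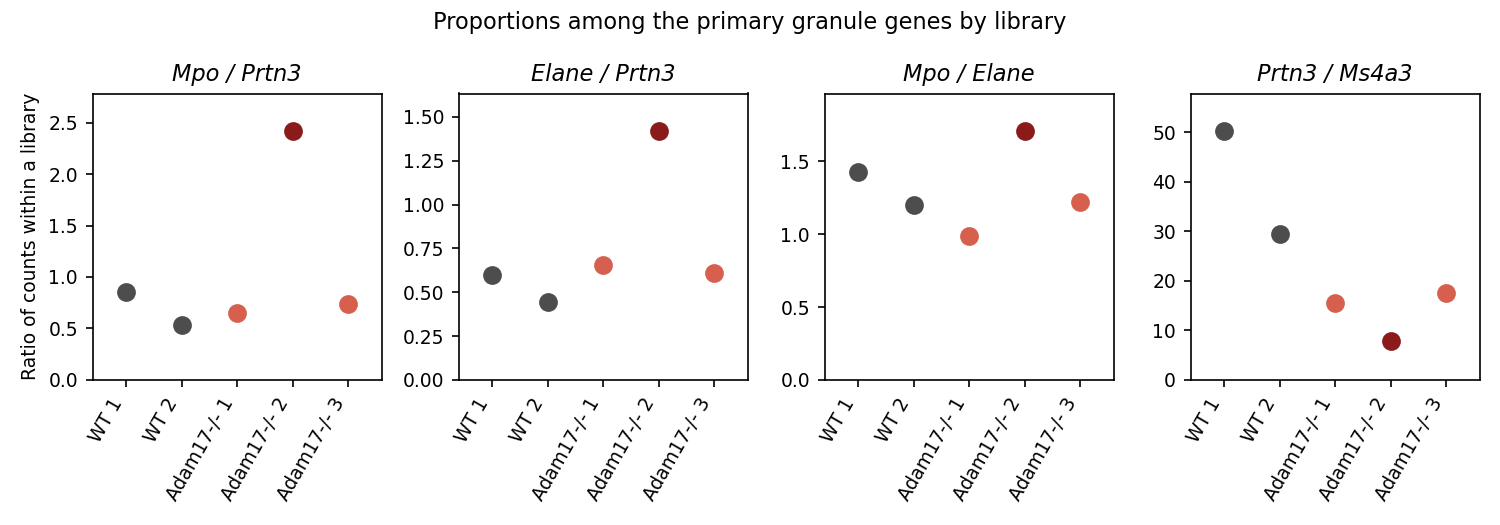
Ratio of the counts of 2 primary granule genes within each library (1 point per library, linear axis from 0). Adam17-/- replicate 2 stands apart at 2.42 for *Mpo* over *Prtn3* and 1.42 for *Elane* over *Prtn3*, and the 3 Adam17-/- libraries lie below both WT libraries for *Prtn3* over *Ms4a3*.

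The position of Adam17-/- replicate 2 was then set against all other genes. It was the highest of the 3 Adam17-/- libraries for 5 of the 5 genes, beside 34.0% of all genes tested, and the highest of all 5 libraries for 5 of 5, beside 15.7%. Its CPM over the mean of replicates 1 and 3 was 3.83 for *Mpo*, 3.47 for *Ctsg*, 2.48 for *Elane*, 2.31 for *Ms4a3* and 1.10 for *Prtn3*, and the median over all genes tested was 0.999. Among 11754 genes with a mean of at least 1 CPM, 10 genes were at least 2 times as high in this library as in every other library. *Mpo* ranked 1 among them, *Elane* 3, *Ms4a3* 5 and *Ctsg* 9, and *Prtn3* ranked 1024 of the 11754. The other 6 genes were *Mamdc2*, *Col6a1*, *Xlr3b*, *Xlr3c*, *Akap12* and *Dio2*.

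**Figure D4:**
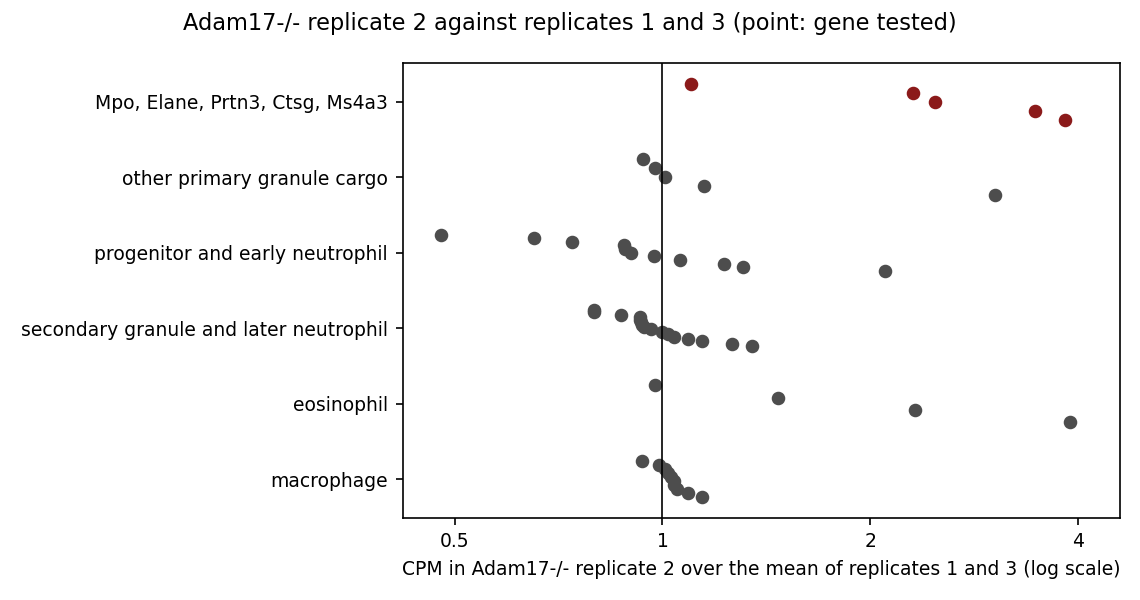
CPM in Adam17-/- replicate 2 divided by the mean of replicates 1 and 3 (log axis), 1 point per gene tested, in 6 gene lists, with points of a list offset vertically to keep them apart. Of the 5 primary granule genes (red), 4 lie between 2.31 and 3.83, while the 16 secondary granule and later neutrophil genes lie between 0.795 and 1.35. Single genes of other lists are high too. These include *Epx* (3.90, eosinophil list median 1.90), *Prss57* (3.03, other cargo list median 1.01) and *Fcnb* (2.10, early neutrophil list median 0.901).

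Markers of other marrow cells were read in the same way. Of the eosinophil genes, *Epx* (eosinophil peroxidase, which lies 59584 bp downstream of *Mpo*) had 10, 4, 11, 32 and 9 counts in WT replicates 1 and 2 and Adam17-/- replicates 1, 2 and 3. *Prg2* (eosinophil major basic protein) had 19, 18, 21, 52 and 34 counts, whereas *Siglecf* stood in Adam17-/- replicate 2 at 0.977 times the mean of the other Adam17-/- libraries. The 8 eosinophil genes summed to between 5.25 and 7.65 CPM in WT and to 14.8, 21.4 and 18.4 CPM in Adam17-/- replicates 1, 2 and 3, with 2 of 4 tested called higher (*Ear2* and *Siglecf*). Without Adam17-/- replicate 2, 1 of 3 tested was called, and *Ear2* had a log2 fold change of 2.02 (adjusted p = 0.057 in edgeR). Of 10 basophil and mast cell genes, 8 had a count. They summed to between 1.3 and 1.93 CPM in WT and to 1.86, 5.66 and 2.97 CPM in Adam17-/- replicates 1, 2 and 3, with 0 of 1 tested called, and *Prss34* had 24 counts in replicate 2 against 0 to 3 elsewhere. The part of such cells in the level of the primary granule genes in that library was not tested. The macrophage markers ran there from 0.934 to 1.14 times the mean of the other Adam17-/- libraries, while 6 of 7 epithelial markers had too few counts to be tested (at most 13 in any library, for *Krt7*). The seventh, *Cdh1*, had 173 to 242 counts.

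The remaining cargo of primary granules was followed in a list of 6 genes, of which 5 were tested, 0 were called, 0 rose and 2 fell, with a median log2 fold change of 0.02. The genes that fell, *Lyz2* (lysozyme, -0.65, adjusted p = 0.00148 in edgeR) and *Gusb* (beta-glucuronidase, -0.74, adjusted p = 0.000924 in edgeR), are also used by macrophages. *Prss57*, a serine protease of these granules, had a log2 fold change of 0.77 (adjusted p = 0.33 in edgeR) and was, like *Mpo*, highest in Adam17-/- replicate 2, at 3.03 times the mean of the other Adam17-/- libraries, although its counts were not whole and are uncertain. *Bpi* (bactericidal/permeability-increasing protein) had 1 count in 1 library.

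The proteins that process, pack and inhibit granule proteases were followed in a list of 16 genes, of which 13 were tested. *Ctsc*, which encodes the dipeptidyl peptidase that activates elastase, proteinase 3 and cathepsin G, had a log2 fold change of -0.21 (adjusted p = 0.149 in edgeR). *Srgn* (serglycin, the proteoglycan that packs the proteases) rose by 0.51 (adjusted p = 0.044 in edgeR). *Serpinb1a*, an intracellular inhibitor of elastase, proteinase 3 and cathepsin G, rose from 4.07 ± 0.0164 to 15.8 ± 2.19 CPM (log2 fold change 1.95, adjusted p = 0.000189 in edgeR) and was the 1 called gene of the list. Its counts of 78 and 75 in WT and 277, 277 and 264 in Adam17-/- libraries were even within each group. In all, 2 genes of the list rose and 5 fell at the adjusted p alone (*Serpinb6a*, *Slpi*, *Ap3b1*, *Jagn1* and *Lman1*), with a median log2 fold change of -0.21.

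Of 12 transcription factors of granulocyte precursors, all tested, 1 was called higher, and at the adjusted p alone 1 rose and 3 fell. *Myb*, a factor of immature progenitors, rose by 1.82 (SE 0.483, adjusted p = 0.0193 in edgeR), from 17 and 6 counts in WT to 36, 49 and 27 in Adam17-/- libraries, and without Adam17-/- replicate 2 its log2 fold change was 1.49 (adjusted p = 0.0543 in edgeR). *Cebpe*, which drives the step from primary to secondary granules, had a log2 fold change of 0.28 (adjusted p = 0.323 in edgeR), and *Gfi1* one of 0.98 (adjusted p = 0.2 in edgeR). In Adam17-/- replicate 2, *Gfi1* and *Myb* stood at 2.12 and 1.90 times the mean of the other Adam17-/- libraries. The median of this ratio over the list was 1.03. *Spi1*, which encodes PU.1, fell by 0.53 (adjusted p = 0.00626 in edgeR), and *Klf4* and *Cebpd* fell as well. Of the 12 progenitor and early neutrophil genes, 11 were tested, 2 were called higher (*Hdc*, 1.07, and *Kit*, 1.10), and the median log2 fold change was 0.47. Without Adam17-/- replicate 2, *Hdc* had a log2 fold change of 0.95 (adjusted p = 0.0273 in edgeR) and *Kit* one of 1.24 (adjusted p = 0.0568 in edgeR), so that neither met both limits, and the list median was 0.54.

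The 16 secondary granule and later neutrophil genes, which a neutrophil expresses after the primary granule stage, gave 12 called higher and a median log2 fold change of 1.37. *Ltf* (lactoferrin) rose by 2.18, *Ngp* by 1.97 and *Camp* by 2.04, while *Mmp9* fell by 0.65. The call count was 12 without Adam17-/- replicate 2 too, and this library was the highest Adam17-/- library for 4 of the 16 genes, against 5 of 5 for the primary granule genes. Both sets come from the same fit and share all libraries, and the difference between them was not tested.

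The genes with the profile nearest to that of the 5 genes were ranked by the root mean square distance of centred log2 CPM over the 5 libraries, among genes with a mean of at least 1 CPM. *Fcnb*, which encodes a ficolin of early neutrophils, was the nearest at a distance of 0.174, below the distance of *Mpo* itself (0.268) and above that of *Elane* (0.146). *Fcnb* had 1.10 and 0.595 CPM in the WT libraries and 1.31, 3.16 and 1.69 CPM in Adam17-/- replicates 1, 2 and 3, and its log2 fold change of 1.24 did not pass the threshold (adjusted p = 0.0595 in edgeR). *Olr1* (0.251), *Prg2* (0.303), *Lipg* (0.306), *Clec1b* (0.310), *Gucy1b1* (0.320), *5031434O11Rik* (0.325) and *Lat* (0.325) followed, and the median over all genes ranked was 0.876. The distances of *Ms4a3* (0.474), *Prtn3* (0.533) and *Ctsg* (0.544) to the mean of the 5 genes were larger than those of all 8 genes named.

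The genes flanking the 5 genes on the chromosome were read last. Of 24 distinct coding genes among the nearest 3 on each side, 19 had a count, 10 were tested, 0 were called, and the median log2 fold change was 0.11. Next to *Elane*, *Cfd* lies 2636 bp downstream and had at most 1 count in any library, and *Plppr3*, next to *Prtn3*, had a log2 fold change of 0.18 (adjusted p = 0.301 in edgeR). Next to *Ms4a3*, the mast cell receptor gene *Ms4a2* had 0 to 2 counts, and *Ms4a6d*, a macrophage member of the family 24694 bp away, had a log2 fold change of -0.18 (adjusted p = 0.201 in edgeR). Next to *Ctsg*, *Mcpt8* had 0 to 6 counts, the highest number again in Adam17-/- replicate 2. At the adjusted p alone *Mks1* rose by 0.80 (adjusted p = 0.00372 in edgeR), and *Ptbp1* and *Med16* fell.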

How the data were processed

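Poly-A RNA of 5 BMDM samples was sequenced by the authors on a BGISEQ-500 platform, and the submitters' processing notes name Bowtie, Bowtie2, RSEM and DESeq2, with build mm10 (GRCm38) and no versions. For each library the authors deposited expected counts and FPKM per transcript. The lowest FPKM listed is 0.01, and a transcript that a file does not list was set to 0. Library totals and the level of 3 counts are given with the results, and Poisson intervals cover counting error only.

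Expected counts were summed per gene (Entrez ID, symbols from RefSeq), rounded and fitted over all 5 libraries in edgeR 4.0.16 under R 4.3.3 (TMM, filterByExpr, glmQLFit and glmQLFTest, no covariates), with groups from the sample labels. FPKM was used for levels between genes. Promoter windows came from RefSeq and exons and transcript starts from GENCODE, both on GRCm38. Exact permutation tests used the absolute difference of means (of log2 values for ratios). The script was tested on simulated data. Other tools were Python 3.11.15, pandas 2.3.3, SciPy 1.17.1 and matplotlib 3.10.9.

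The 5 genes and the gene lists were chosen with earlier results of these data known. The genes named were the 5 genes, genes of the lists where a list is described, the 3 nearest coding genes on each side, and the 8 genes nearest in profile (log2 CPM with a prior count of 2). The 6 genes named for their level in Adam17-/- replicate 2 were chosen after their values were seen. Alternatives were each library left out in turn, a block on replicate number, 2 other thresholds, DESeq2 1.42.0, scaling by upper quartile or by library size only, a minimum of 10 counts in every library or no minimum, and limma 3.58.1 on log2 FPKM with a pseudocount of 0.1 or 1.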

Additional observations from a re-analysis of the deposited data

How the results depend on the processing

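The number of primary granule genes called higher was 2 (*Elane* and *Ms4a3*) in the analysis as reported, with DESeq2, with upper quartile factors and with both limma fits on FPKM. It was 3, with *Mpo* added, for library size only, and 4, with *Mpo* and *Ctsg* added, without a filter on low counts. It was 1 (*Elane*) where at least 10 counts in every library were required, which left *Ctsg* and *Ms4a3* untested, and 0 with the limits set at an adjusted p of 0.001 and a log2 change of 0.25. With each library left out in turn it ran from 2 to 4, the highest without Adam17-/- replicate 1. Where a group kept 1 library, that library was assumed to vary like those of the other group. Of the genes of the other 5 neutrophil lists, 16 were called higher, and from 10 (without WT replicate 2) to 20 with each library left out. The count of 12 for the secondary granule and later neutrophil genes ran from 9 to 13. No log2 fold change of the 5 genes turned negative. That of *Elane* ran from 1.00 to 1.96 and that of *Prtn3* from 0.63 to 0.94, with an adjusted p of at most 0.049 in 13 of 13 alternatives. That of *Ms4a3* ran from 1.19 to 2.64 and passed in 12 of 12, while *Mpo* (0.72 to 2.21) passed in 5 of 13 and *Ctsg* (0.78 to 2.48) in 2 of 12. The cause of these changes was not tested. The number of all genes called higher was 422, 639 for library size only and 120 for limma on log2(FPKM + 1). Whether the replicate numbers pair the libraries cannot be told. The deviations of same-numbered libraries from their group means had correlations of -0.124 and -0.0504, with 2 pairs only. The deviations of 2 WT libraries mirror each other, so these values are not independent and cannot decide it. With the replicate number as a block, which drops Adam17-/- replicate 3 from the contrast, 3 of the 5 genes were called higher, *Mpo* among them (log2 fold change 1.65, adjusted p = 0.00609 in edgeR). The counts of *Ctsg* and *Ms4a3* in WT libraries, between 6 and 23, limit what can be said of their size.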

Other observations

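The 6 other genes at least 2 times as high in Adam17-/- replicate 2 as in every other library belonged to none of the lists. *Mamdc2* had 57 counts there and 8 to 28 elsewhere, *Col6a1* 42 and 10 to 22, *Akap12* 31 and 10 to 18, and *Dio2*, which encodes the deiodinase that activates thyroid hormone, 258 and 96 to 156. *Xlr3b* and *Xlr3c*, near-identical copies whose counts were not whole, are uncertain.

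Of 7 monocyte genes, *Ly6c2* was called higher at 1.81 (adjusted p = 0.000713 in edgeR) and *Nr4a1* lower at -1.04 (adjusted p = 0.00833 in edgeR), both with even values in the 3 Adam17-/- libraries. Of 7 cycling cell genes, *Mcm5* was called lower and 3 rose at the adjusted p alone. Of 4 erythroid genes with a count, *Hba-a1* was called higher of 2 tested, and of 6 lymphocyte genes with a count, 0 were called of 2 tested. Of 7 epithelial genes, 1 was tested (*Cdh1*, 0.14, adjusted p = 0.422 in edgeR).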
